A study of Mus musculus with 2 samples.

Results

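The Cdkn1a-expressing microglia are the cells in which 2 or more Cdkn1a transcripts were counted: 285 of 20222 hypothalamic microglia, 162 of 9860 in the plasma-negative library and 123 of 10362 in the plasma-positive library. Transcripts were counted as unique molecular identifiers (UMIs), so that 1 UMI stands for 1 captured RNA molecule. Each Cdkn1a-expressing cell was set against 5 cells with 0 Cdkn1a UMIs and the nearest total UMI count in its own library, 1425 matched cells in all. Because the cells were selected on Cdkn1a itself, and genes that vary with it come along, every comparison with the matched cells is given as a description, with no test.

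Cdkn1a encodes p21, a small protein that binds cyclin-dependent kinases and the replication clamp PCNA and so holds cells in or between phases of the cell cycle. The tumour suppressor p53 switches the gene on after DNA damage and other stresses, and interferon, TGF-beta and myeloid differentiation signals can raise it without p53. In microglia, the resident macrophages of the brain, p21 is best known as a sign of cell cycle arrest, of senescence and of recovery after proliferation.

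The cells were sorted from the hypothalamus of young wild-type mice, several of which were pooled, 20 hours after an injection of plasma protein that carried a dye. Sorting separated microglia with the dye (plasma-positive) from microglia without it (plasma-negative), and each fraction gave 1 droplet library of 3′ ends. With 1 library per fraction there is no replicate, cells of 1 library share its preparation, and differences between the fractions cannot be told apart from differences between the libraries. After the cell filter the libraries held 34534518 and 41984977 UMIs, with a median of 3271 and 3753 UMIs per cell. Cell barcodes were not used here, so barcodes that the libraries might share were not counted. Intervals in parentheses are 95% exact intervals and cover counting error only.

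One stretch of sequence is shown because it is the element through which p53 is known to reach this gene. RefSeq's promoter table (GRCm38.p6, the authors' own build is not given in the sources used here) gives Cdkn1a 2 start sites on the plus strand of chromosome 17, 2790 bases apart. The 250 bases before the upstream start hold a match to the p53 consensus, a pair of 10-base half-sites with no spacer, with 1 mismatch, printed in capitals. Between its end and the upstream start lie 31 bases, and between its end and the downstream start 2821. In the annotation (GENCODE M21) the gene spans chr17:29090976-29100727.
Cdkn1a, chr17:29090729-29090978, plus strand: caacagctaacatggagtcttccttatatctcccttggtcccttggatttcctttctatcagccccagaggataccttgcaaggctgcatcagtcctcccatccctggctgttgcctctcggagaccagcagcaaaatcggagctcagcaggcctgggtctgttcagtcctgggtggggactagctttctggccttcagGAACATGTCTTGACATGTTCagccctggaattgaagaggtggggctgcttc

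Of 32851 start-site windows, 25 (0.0761%) hold such a match within the 250 bases before the start. Among the 40 p53 target genes listed for this work, 32 had a window, and Ccng1 and Rps27l were the 2 with a match, also shown in capitals with 5 bases on each side. A match is a description of the letters, and counting from 3′ ends does not tell which start was used.
Ccng1, chr11:40755457-40755486, minus strand: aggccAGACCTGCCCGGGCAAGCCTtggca
Rps27l, chr9:66946291-66946320, plus strand: atggcGGGCTTGTTGAGACTTGTCCgggcg

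Cdkn1a was a rare transcript that was piled up in few cells. Levels are given as CPM, the usual scaling of counts by library size. The plasma-negative library held 987 Cdkn1a UMIs, 28.6 CPM (26.8 to 30.4), and the plasma-positive library 781, or 18.6 CPM (17.3 to 20.0), a ratio of 0.651 (0.592 to 0.716). Cells with at least 1 UMI made up 6.05% (5.59 to 6.54) and 4.98% (4.57 to 5.42) of the libraries, and cells with 2 or more 1.64% (1.40 to 1.91) and 1.19% (0.987 to 1.41). The cells selected here therefore held 55.9% of all Cdkn1a UMIs in the plasma-negative library and 49.7% in the plasma-positive one. A single cell held up to 18 and 17 UMIs.

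Depth enters the rule directly. With each library cut by depth into 5 equal parts, 0.862% of plasma-negative cells were selected in the shallowest part and 2.84% in the deepest, and in the plasma-positive library the shares were 0.386% and 2.60%. When every cell was thinned to 1000 UMIs (796 and 603 shallower cells left out), 2.28% (1.99 to 2.61) and 1.64% (1.40 to 1.91) of cells kept a Cdkn1a UMI, and 0.386% and 0.205% kept 2. At this equal depth the variance of the Cdkn1a count was 1.79 and 1.29 times its mean. Genes of a like level had a median of 1.03 (2608 genes, 2 of them above Cdkn1a) and 1.02 (2476 genes, 12 above). No cell type that lacks Cdkn1a was at hand to measure the background from free RNA.

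**Figure D1:**
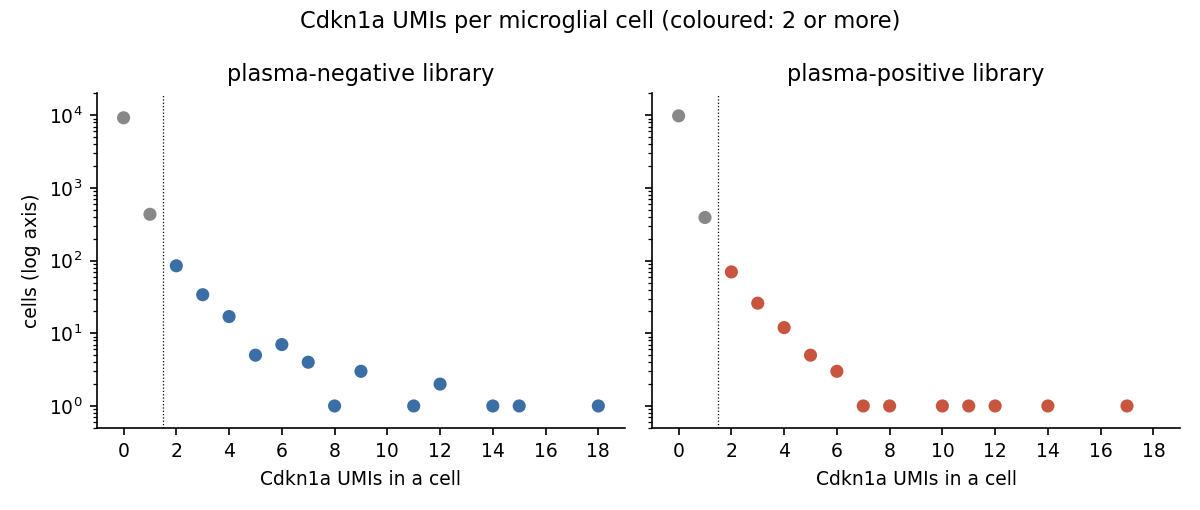
Number of cells (vertical, log axis) by Cdkn1a UMIs per cell (horizontal) in each library; grey points are cells with 0 or 1, coloured points, right of the dotted line, the selected cells. The counts fall from 435 and 393 cells with 1 UMI to 85 and 70 cells with 2, and the tails reach 18 and 17 UMIs.

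The selected cells carried the markers of microglia. All 285 had at least 4 of 11 microglial markers, and 182 of them had all 11 (977 of 1425 matched cells). The fractalkine receptor gene Cx3cr1 was found in 284 of 285 and the purine receptor gene P2ry12 in 275. Of the other cell types checked, none reached 4 markers in any selected cell except dendritic cells, in 4 of 285 and in 15 of 1425 matched cells; that list contains Siglech and Bst2, which microglia express. The T or NK, mural or fibroblast, ependymal and erythroid lists were at 0 UMIs in the selected cells of both libraries, and so were the border macrophage genes Cd163, Lyve1, F13a1, Ms4a7 and Folr2. Of the same border macrophage list, Stab1 was found in 121 of 285 selected and 727 of 1425 matched cells, and Mrc1 in 5 and 20. Summed, the 10 border macrophage markers stood at 144 and 175 CPM in selected cells and at 189.5 and 192 CPM in matched cells.

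Within this uniform identity, 3 kinds of cell could be set apart by measures chosen after the data had been seen. In 33 cells (11 plasma-negative and 22 plasma-positive) 5 or more UMIs came from a list of 25 mitosis genes. Another 45 cells (40 and 5) had under 0.3% of their UMIs from the mitochondrial genome. No cell was both, and 207 (111 and 96) were neither. Among the matched cells 2 of 1425 had the mitosis transcripts and 50 of 1425 the low mitochondrial share. Cdkn1a itself stood at 847, 1388 and 579 CPM in the 3 kinds in the plasma-negative library and at 683, 707 and 531 CPM in the plasma-positive one. Their median depths were 4607, 2613 and 3909 UMIs and 6039.5, 3062 and 4766 UMIs. The median was 3, 2 and 2 Cdkn1a UMIs per cell in each library. Since the required 2 UMIs are a higher CPM in a shallower cell, the kinds are not ranked by these levels.

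**Figure D2:**
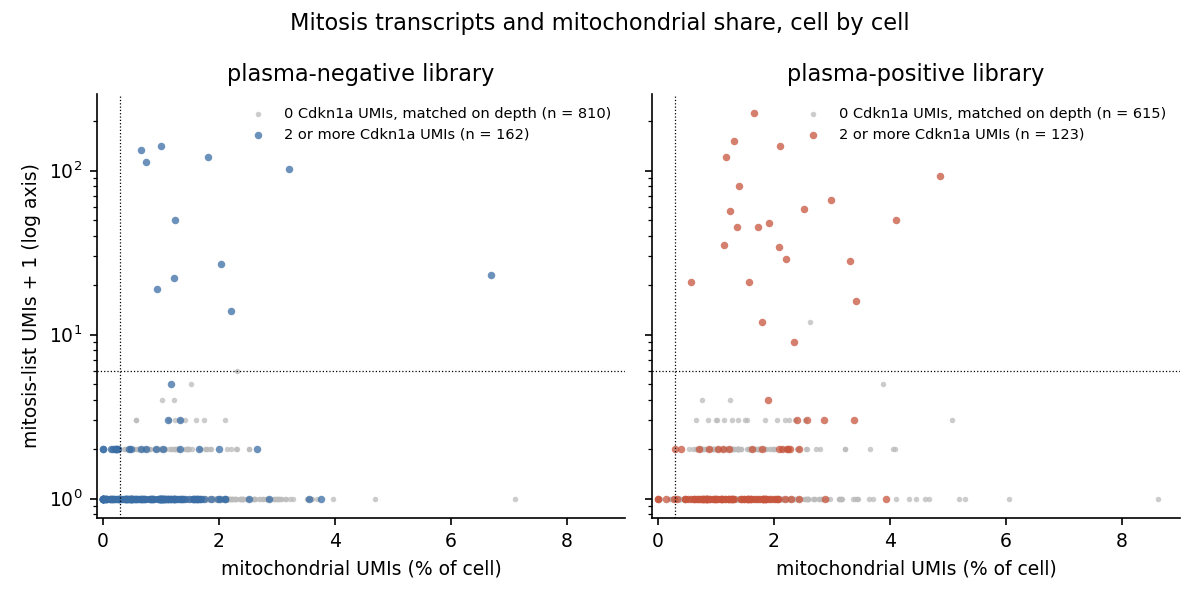
Each point is a cell: its mitochondrial share (horizontal, % of UMIs) and its mitosis-list UMIs plus 1 (vertical, log axis), for cells with 2 or more Cdkn1a UMIs (coloured) and matched cells with 0 (grey); dotted lines mark 0.3% and 5 UMIs. Above the horizontal line lie 11 and 22 coloured cells and 1 grey cell in each library, and left of the vertical line 40 and 5 coloured cells.

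The overlap of Cdkn1a with mitosis transcripts was also seen from the side of the mitotic cells. Of the 21 plasma-negative cells with 5 or more mitosis-list UMIs, 16 (76.2%, 52.8 to 91.8) had a Cdkn1a UMI and 11 had 2 or more. Of 57 such plasma-positive cells, 33 (57.9%, 44.1 to 70.9) had one and 22 had 2 or more. Among cells of the same depth with fewer mitosis UMIs the share with a Cdkn1a UMI was 4.76% (5 of 105) and 5.26% (15 of 285). The mitotic cells' intervals lay above those of the depth-matched cells, which ended at 10.8% and 8.53%.

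The mitotic cells that carried it were not the weakly mitotic ones. The 33 with 2 or more Cdkn1a UMIs had a median of 47 mitosis-list UMIs (8 to 224), and the 29 mitotic cells with 0 Cdkn1a UMIs a median of 12 (5 to 137), at median depths of 5960 and 4854 UMIs. Mki67, which encodes the proliferation marker Ki-67, stood at 1454 CPM against 492 CPM in those 29, and Top2a, the topoisomerase that untangles chromosomes, at 1301 against 752 CPM. DNA replication genes took 0.287% against 0.205% of UMIs. Apoe, the lipid carrier that marked many plasma-positive cells, was lower in the mitotic cells with Cdkn1a, at 195 against 1312 CPM, and 24 of the 29 cells without Cdkn1a were plasma-positive against 22 of 33.

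The cells of low mitochondrial share came mostly from the plasma-negative library. There 95 of 747 such cells (12.7%, 10.4 to 15.3) had a Cdkn1a UMI, against 3.43% (2.87 to 4.06) of depth-matched cells above the limit. In the plasma-positive library the shares were 5.96% (3.57 to 9.26) of 302 cells and 3.25% (2.41 to 4.27), and their intervals overlap. Low-mitochondria cells held 217 of the 987 Cdkn1a UMIs in the plasma-negative library and 25 of the 781 in the plasma-positive one. In cells at 0.3% or more, Cdkn1a stood at 23.6 CPM (770 UMIs) and 18.3 CPM (756 UMIs), levels for which no interval was computed. Of those cells 1.34% (1.11 to 1.60) and 1.17% (0.972 to 1.40) had 2 or more Cdkn1a UMIs, with overlapping intervals. These shares depend on depth, which had a median of 3332 UMIs in the plasma-negative and 3793 in the plasma-positive cells. The overlap therefore does not show that the libraries are alike in Cdkn1a. The mitochondrial share of the selected cells differed in direction between the libraries, with a median of 0.825% against 1.08% in matched plasma-negative cells and 1.43% against 1.31% in plasma-positive ones. Whether cell quality has a part in these values was not tested.

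Across the transcriptome few genes differed by a rule of size: a ratio of CPM of at least 1.5 in each library, with the pooled interval excluding 1. Of 3560 genes at 50 CPM or more, 51 were higher in the Cdkn1a-expressing cells (1.43%) and 3 were lower (0.0843%), and the median log2 ratio was 0.02. The 50 CPM were asked of the mean of selected and matched cells. Genes high in the selected cells could thus enter through them, as Mki67 (0.277 CPM in matched cells) and Ifit3 (22.3 CPM) did. The cells were also chosen on a gene of the same counts. Nothing is therefore read from these shares or from the excess of higher over lower genes.

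The leading genes were those of dividing cells. Mki67 was counted 104 and 212 times in the selected cells (plasma-negative and plasma-positive) and once in the matched cells of each library, a ratio of 790 (217 to 6550). Prc1, which bundles the microtubules of the dividing spindle, had 74 and 116 UMIs in 25 selected cells and none in matched cells, at least 317-fold higher with a floor of 3 UMIs over the matched group. Top2a had 101 and 179 UMIs against 2 and 5, and the linker histone gene Hist1h1b 71 and 126 against 1 and 2. Cenpf, a kinetochore protein gene, had 71 and 107 UMIs against 4 and 3. These 5 genes were found in 22 to 32 of the 285 selected cells, so the ratios describe a minority of cells.

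A second group was higher by smaller factors and was found in more cells. Stmn1, which encodes the microtubule-destabilizing stathmin, stood at 203 and 410 CPM against 30.2 and 47.0 CPM, a ratio of 7.89 (6.77 to 9.21), with a UMI in 68 of 285 cells. The chromatin protein gene Hmgb2 stood at 320 and 485 against 77.2 and 75.8 CPM, a ratio of 5.20 (4.62 to 5.85), in 111 cells. The condensin subunit gene Smc2, the chromatin ATPase gene Atad2 and the histone genes Hist1h2ap and Hist1h2ae had ratios between 4.88 and 6.50. Reads of near-identical histone genes may be split or shared between copies, so those values are uncertain. The 33 mitotic cells described above held 370 of the 434 Stmn1 UMIs and 442 of the 574 Hmgb2 UMIs. Without them Stmn1 was at 1.58 (1.17 to 2.10), Hmgb2 at 1.42 (1.16 to 1.73), Hist1h2ap at 1.00 (0.700 to 1.41) and Hist1h2ae at 0.747 (0.460 to 1.16).

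**Figure D3:**
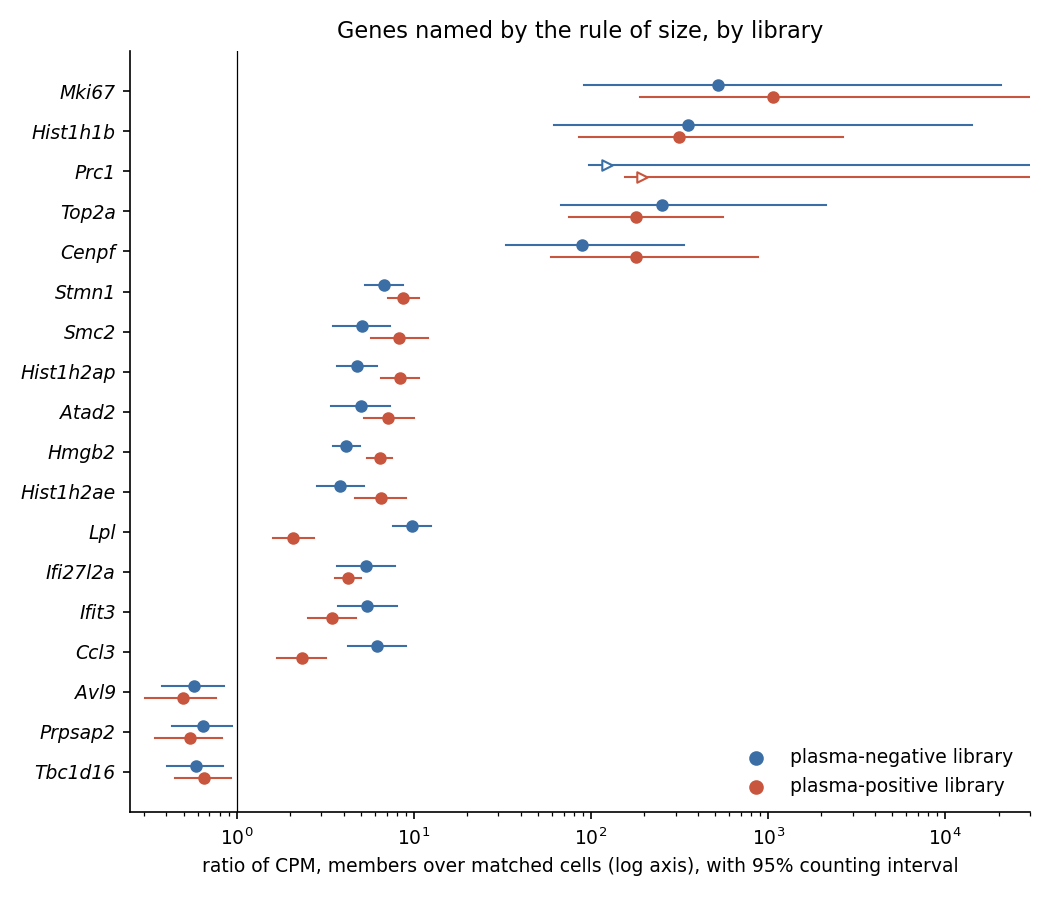
Ratio of CPM in Cdkn1a-expressing cells over matched cells (horizontal, log axis) for the 15 highest and the 3 lower genes at 50 CPM or more, by library; lines are 95% counting intervals, cut at the edge of the plot, and open triangles are lower bounds against 0 UMIs. Lpl and Ccl3 lie farther right in the plasma-negative library, and the cell division genes lie above 3 in both.

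Without the 33 mitotic cells, and with matched cells treated alike, the list was different. Of 3528 genes, 14 were higher (0.397%) and 1 was lower (0.0283%). Here too genes could reach 50 CPM through the selected cells, as Cxcl10 (11.6 CPM in matched cells) and Ifit3 (19.4 CPM) did. The 14 were the interferon-induced genes Cxcl10, Ifit3, Ifi27l2a, Ifi204, Ifitm3, Slfn2 and Parp14, the chemokine genes Ccl3 and Ccl4, the lipase gene Lpl, the p53 target Bax, and Ifrd1, Eif4ebp1 and Nupr1, of which the last 2 respond to the stress factor ATF4. Avl9, a gene of late secretory transport, remained the lower one at 0.499 (0.353 to 0.688). When the low-mitochondria cells were left out as well, 12 of 3519 genes were higher (0.341%) and 1 lower (0.0284%). Bax was then at 1.70 (1.43 to 2.01) pooled and at 1.47 in the plasma-positive library, just under the limit of size.

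Among the regulators of the same pathway, other inhibitors of cyclin-dependent kinases were described first. Gene lists were read at a minimum of 20 CPM, where 156 of 6512 genes were higher (2.40%), 19 were lower (0.292%) and the median log2 ratio was 0.04. Of 7 other inhibitors 4 reached that level and 2 were higher, but both of these reached it only through the selected cells. Cdkn2c, which encodes p18, stood at 44.6 and 58.8 CPM against 7.35 and 5.58 CPM, a ratio of 7.87 (5.39 to 11.6). Cdkn2d, which encodes p19, had a ratio of 3.08 (2.15 to 4.39). The p27 gene Cdkn1b, the closest relative of Cdkn1a among them, did not differ by the rule, at 1.04 (0.855 to 1.26). Cdkn2a, whose products p16 and Arf are read as marks of senescence, gave 2 and 12 UMIs in 12 selected cells against 0 and 4, a level too low to enter the lists. Without the mitotic cells Cdkn2c was at 2.50 (1.43 to 4.26), and Cdkn2d at 1.30 (0.741 to 2.18).

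Replication genes followed the mitotic cells. Of 24 listed, 9 reached 20 CPM and 5 were higher: Tyms, the thymidylate synthase gene, at 4.14 (2.96 to 5.79), and Fen1, Lig1, Mcm7 and Slbp at ratios from 1.84 to 2.67. Of these, Slbp alone was at 20 CPM in matched cells. All 13 mitosis genes at this level were higher, but all except Cks2 reached it only through the selected cells, so that count could not come out otherwise. With the mitotic cells left out, 5 replication genes reached the level and none was higher. At that level 49 of 6457 genes were higher (0.759%) and 23 lower (0.356%). The gene of PCNA, the replication clamp that p21 binds, was then at 0.643 (0.427 to 0.937) pooled. With the low-mitochondria cells also left out, it was compared with all cells with 0 Cdkn1a UMIs, without depth matching. It stood at 20.5 CPM (12 UMIs) against 31.7 CPM in the plasma-negative library. In the plasma-positive library it stood at 35.3 CPM (18 UMIs) against 33.9 CPM. The cyclin D1 gene Ccnd1, whose product p21 also binds, was at 1.36 (1.15 to 1.60) in the plasma-negative and at 1.03 (0.831 to 1.27) in the plasma-positive library. Without the mitotic cells the values were 1.43 and 1.23.

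Targets of p53 were modestly higher as a group. They took 0.151% and 0.141% of UMIs in the selected cells of the 2 libraries and 0.112% and 0.105% in matched cells, a summed ratio of 1.34 (1.28 to 1.41). Of 40 listed genes 17 reached 20 CPM, 4 met the rule, none was lower by it, and their median log2 ratio was 0.31. Of the 4, Bbc3, Aen and Polk lay under 20 CPM in matched cells and entered through the selected cells. The count and the median are therefore partly set by that level. Bax was the 1 of the 13 genes at 20 CPM in matched cells that met the rule. The share of all genes under that filter was not computed. Bax, the pore-forming death effector, stood at 211 and 163 CPM against 96.6 and 100.2 CPM, a ratio of 1.92 (1.66 to 2.21), and had a UMI in 163 of 285 selected and 523 of 1425 matched cells. Bbc3, which encodes the death activator PUMA, stood at 69.5 and 44.1 against 19.7 and 18.2 CPM, a ratio of 3.03 (2.28 to 4.01). The nuclease gene Aen was at 2.08 (1.40 to 3.04) and the repair polymerase gene Polk at 1.73 (1.20 to 2.46). Without the mitotic cells Polk no longer met the rule, at 1.54 (1.01 to 2.30). Without the low-mitochondria cells as well, Aen was at 1.87 (1.16 to 2.92) with a mean level under 20 CPM, and Bbc3 and Plk3 were the 2 listed targets that met the rule.

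Not every target moved that way. The lowest were Sesn1, a stress-induced metabolic regulator, at 0.755 (0.606 to 0.933), and the antiproliferative gene Btg2 at 0.895 (0.784 to 1.02). Mdm2, which encodes the ligase that degrades p53, was at 1.28 (0.991 to 1.64). The 2 genes whose promoter sites are printed above were at 1.56 (1.15 to 2.10) for Ccng1, a cyclin G gene, and at 1.69 (1.49 to 1.91) for Rps27l, a ribosomal protein paralog, and each missed the limit of size in 1 library. The p53 gene itself, Trp53, was at 1.13 (0.918 to 1.37).

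Phlda3, a p53-induced repressor of Akt signalling was picked out after its values were seen. It was too rare for the lists, with 10 and 11 UMIs in 18 of the 285 selected cells against 1 UMI in the 1425 matched cells, a ratio of 105 (16.9 to 4341). Over all 19109 cells with 0 Cdkn1a UMIs it was counted 8 times, in 7 cells, or 0.0366% of them. It was found in 0.725% of the 828 cells with 1 Cdkn1a UMI and in 6.32% of those with 2 or more. In the 3 kinds of selected cell it had 7 UMIs (mitotic), 5 (low mitochondrial share) and 9 (the others). Another 22 targets lay under 20 CPM. Of these Pmaip1, Sesn2, Plk2, Psrc1, Def6 and Ckap2 had intervals above 1 and none had one below 1. Plk2 had 4 UMIs in 1 selected cell against 2 UMIs in matched cells. Psrc1 and Ckap2 are also spindle genes of dividing cells. For the rarest genes an interval below 1 could hardly occur. Eda2r and Ddit4l had no UMI, and Fas, with 1 UMI against 14, had an interval of 0.00844 to 2.35.

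Summed as a list, the p53 targets were higher within each kind of cell. The comparison was with all cells of that kind that had 0 Cdkn1a UMIs, here without depth matching. Their summed ratio was 1.28 (1.09 to 1.51) among mitotic cells, 1.75 (1.54 to 1.98) among cells of low mitochondrial share and 1.25 (1.18 to 1.31) among the others. The list holds the spindle genes Psrc1 and Ckap2, and the mitotic cells with Cdkn1a had more mitosis-list UMIs (median 47 against 12). The part of these genes in the ratio among mitotic cells was not tested. Bax was at 2.71 (1.92 to 3.75) in the low-mitochondria cells, at 1.64 (1.41 to 1.90) in the others and at 1.27 (0.793 to 2.07) in the mitotic ones, where its interval includes 1. Bbc3 was at 5.25 (3.06 to 8.69) and 2.56 (1.94 to 3.31) in the first 2 of these, and was counted only 2 times in mitotic cells with Cdkn1a.

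Interferon-induced genes formed the other large group. Of 22 listed, 12 reached 20 CPM, 8 were higher and the median log2 ratio was 1.29. Cxcl10 and Ifit2 entered through the selected cells, which raises both figures. Of the 9 genes at 20 CPM in matched cells 6 were higher, but the share of all genes under that filter was not computed. The listed genes took 0.0855% and 0.191% of UMIs against 0.0414% and 0.0797%. Ifi27l2a, an interferon-induced membrane protein gene, stood at 81.3 and 405 CPM against 15.2 and 95.5 CPM, a ratio of 4.41 (3.80 to 5.12), with a UMI in 62 selected cells. Ifitm3, an antiviral membrane protein gene, was at 2.28 (1.86 to 2.79), with a UMI in 41 selected cells. Ifit3, an antiviral RNA-binding protein gene, was at 4.13 (3.26 to 5.23). It was found in 27 selected cells, and 23.3% of its UMIs there lay in 1 cell and 63.9% in 5. The transcription factor gene Stat2 had the lowest ratio of the list, at 1.26 (0.843 to 1.83). Cells with 3 or more interferon-list UMIs were 113 of 285 selected (39.6%, 33.9 to 45.6) and 392 of 1425 matched cells (27.5%, 25.2 to 29.9). The mitotic selected cells carried the group too, at 0.103% and 0.128% of UMIs. Against mitotic cells with 0 Cdkn1a UMIs, which took 0.144% over both libraries, they were at 0.841 (0.705 to 1.00).

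Chemokines and Lpl were high in a handful of cells. Cxcl10, an interferon-induced chemokine gene, had 46 and 73 UMIs against 21 and 50, a ratio of 8.38 (6.19 to 11.4), but they lay in 8 cells and the highest one held 42.0% of them. Ccl3 had 67 and 59 UMIs against 54 and 127, a ratio of 3.48 (2.75 to 4.39), in 23 cells with 34.1% in 1 cell. Lpl, which encodes the lipoprotein lipase that phagocytic microglia make, stood at 252 and 119 CPM against 26.0 and 57.0 CPM, a ratio of 4.66 (3.93 to 5.51), with 29.7% of its UMIs in 1 cell. Counted as cells, 18 of 285 had 3 or more Lpl UMIs (6.32%, 3.79 to 9.80) against 20 of 1425 (1.40%, 0.859 to 2.16), and 11 had 3 or more of Ccl3 and Ccl4 (3.86%, 1.94 to 6.80) against 19 (1.33%, 0.805 to 2.07), whose intervals overlap.

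The integrated stress response is the ATF4 programme of cells short of amino acids or under endoplasmic reticulum stress. All 16 of its measured targets had a pooled ratio above 1, as did 3701 of all 6512 genes at this level. Atf4 itself was at 1.06 (0.843 to 1.32) pooled and at 0.884 (0.587 to 1.29) in the plasma-positive library. The 16 had a median log2 ratio of 0.52, and 3 met the rule. These were the transcription factor gene Atf3 at 2.40 (1.82 to 3.13), the folate enzyme gene Mthfd2 at 1.72 (1.39 to 2.12) and the translation repressor gene Eif4ebp1 at 1.69 (1.41 to 2.01). Of 12 heat shock genes only Hsp90aa1 met it, at 1.91 (1.69 to 2.16), and of 15 unfolded protein response genes none did. The latter list was at 0.987 (0.963 to 1.01) summed, with the chaperone gene Dnajb9 lowest at 0.679 (0.534 to 0.854). Immediate early genes, which cell isolation can also induce, had a summed ratio of 1.17 in the plasma-negative and 0.981 in the plasma-positive library.

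Homeostatic genes took a smaller share of UMIs in the selected cells. None of 20 met the rule, but all 20 had a pooled ratio under 1, with a median log2 ratio of -0.14, and they took 9.31% and 10.3% of UMIs against 11.0% and 11.0%. Of all 6512 genes at 20 CPM, 3701 were above 1. P2ry12 stood at 2367 and 2124 CPM against 2976 and 2682 CPM, a ratio of 0.794 (0.765 to 0.824), and Slc2a5, a fructose transporter gene, was at 0.747 (0.664 to 0.839). At the other end, the transcription factor gene Mef2c was at 0.985 (0.941 to 1.03) and the nucleotide receptor gene P2ry6 at 0.988 (0.906 to 1.08). Without the mitotic cells 3 of the 20 were above 1, and 3664 of all 6457 genes. The lysosome list was at 0.927 (0.918 to 0.936) summed, and the disease-associated list at 0.967 (0.954 to 0.980), with Lpl as its 1 gene that met the rule. Lgals3 had the highest ratio of the disease-associated list, at 4.90 (3.25 to 7.38), but 76% of its UMIs lay in 1 cell. It was at 35.0 in the plasma-negative and 0.889 in the plasma-positive library, and at 7.07 CPM in matched cells. Since levels are shares of a cell's UMIs, a gain in some genes lowers the share of the others.

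Senescence and secretory genes had a summed ratio of 1.34 (1.24 to 1.46). Cxcl10 entered this sum with 119 UMIs in 8 selected cells against 71 UMIs in matched cells, and the ratio without it was not computed. Of 26 listed, 6 reached 20 CPM and Cxcl10 was the 1 that met the rule, having reached that level through the selected cells; Glb1, the gene of the enzyme behind senescence-associated galactosidase staining, was at 1.01 (0.771 to 1.30). The secreted factor gene Il6 lay below 20 CPM, at 0.687 (0.395 to 1.13). The TGF-beta pathway, another inducer of Cdkn1a, had no gene of 14 that met the rule, and its members lay on both sides of 1. The receptor gene Tgfbr1 was at 0.869 (0.825 to 0.915), the induced matrix protein gene Tgfbi at 1.54 (1.09 to 2.14) and Skil, a feedback repressor gene, at 1.12 (1.01 to 1.24).

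**Figure D4:**
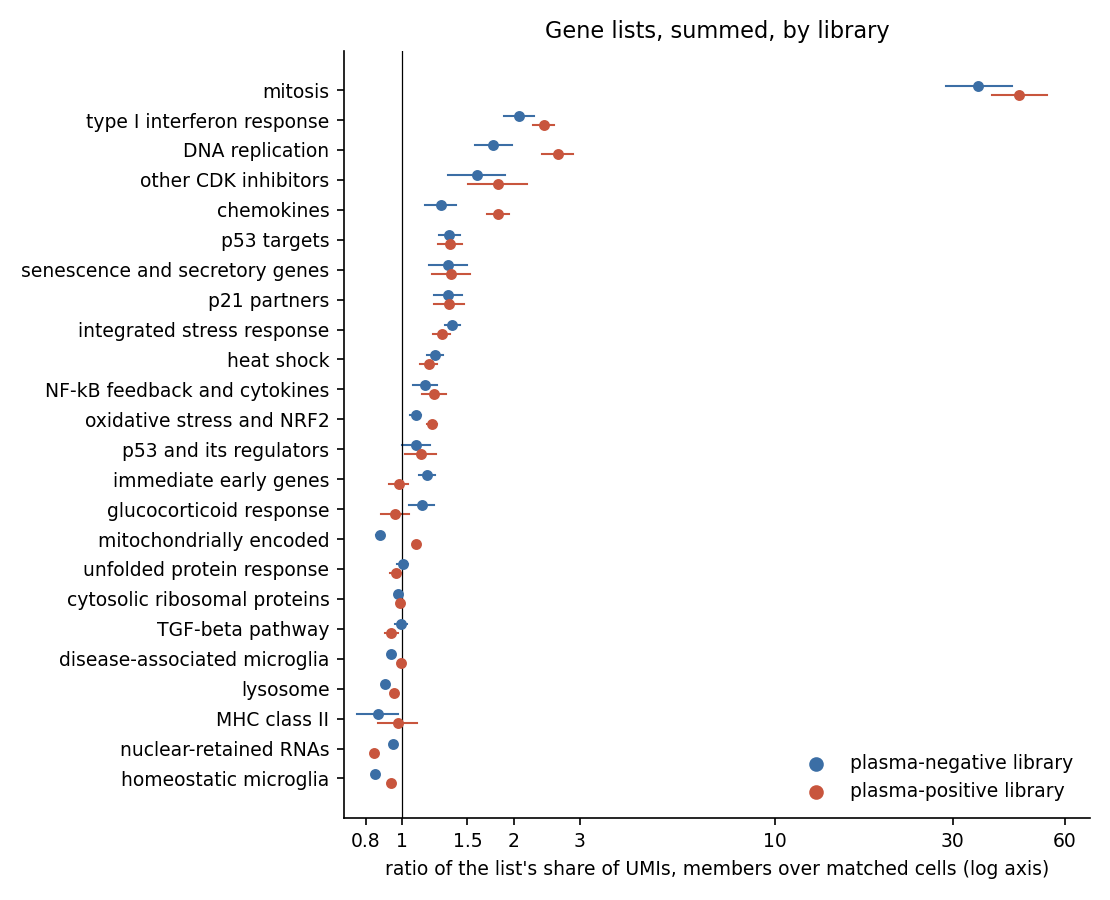
Summed ratio of each gene list's share of UMIs, Cdkn1a-expressing cells over matched cells (horizontal, log axis), by library, with 95% counting intervals that are often narrower than the points. Mitosis lies far right at 35.2 and 45.2, p53 targets lie at 1.34 and 1.35, and mitochondrially encoded genes lie on opposite sides of 1 in the 2 libraries.

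Cells on both sides of the threshold of 2 UMIs were compared. Cells with 1, 2, 3 or 4, and 5 or more Cdkn1a UMIs (828, 155, 89 and 41 cells), each matched to their own cells with 0, had p53 targets at summed ratios of 1.12 (1.08 to 1.15), 1.19 (1.11 to 1.28), 1.31 (1.20 to 1.43) and 1.98 (1.77 to 2.21). Bax went along at 1.27, 1.40, 1.89 and 3.82. The share of cells with mitosis transcripts was 1.93%, 8.39%, 13.5% and 19.5%, and that of cells with under 0.3% mitochondrial UMIs 8.21%, 15.5%, 10.1% and 29.3%. With 5 or more Cdkn1a UMIs, the latter numbered 12 of 26 in the plasma-negative library and 0 of 15 in the other; their part in the p53 values was not tested. Interferon genes did not follow that order: they stood at 1.59 (1.53 to 1.65), 2.60 (2.42 to 2.79), 2.29 (2.08 to 2.51) and 0.916 (0.743 to 1.12), and in the cells with 5 or more the interval included 1. Homeostatic genes stood at 0.969, 0.935, 0.857 and 0.766. Just outside the threshold, cells with 1 UMI were thus on the same side as those with 2 for each of these lists.

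**Figure D5:**
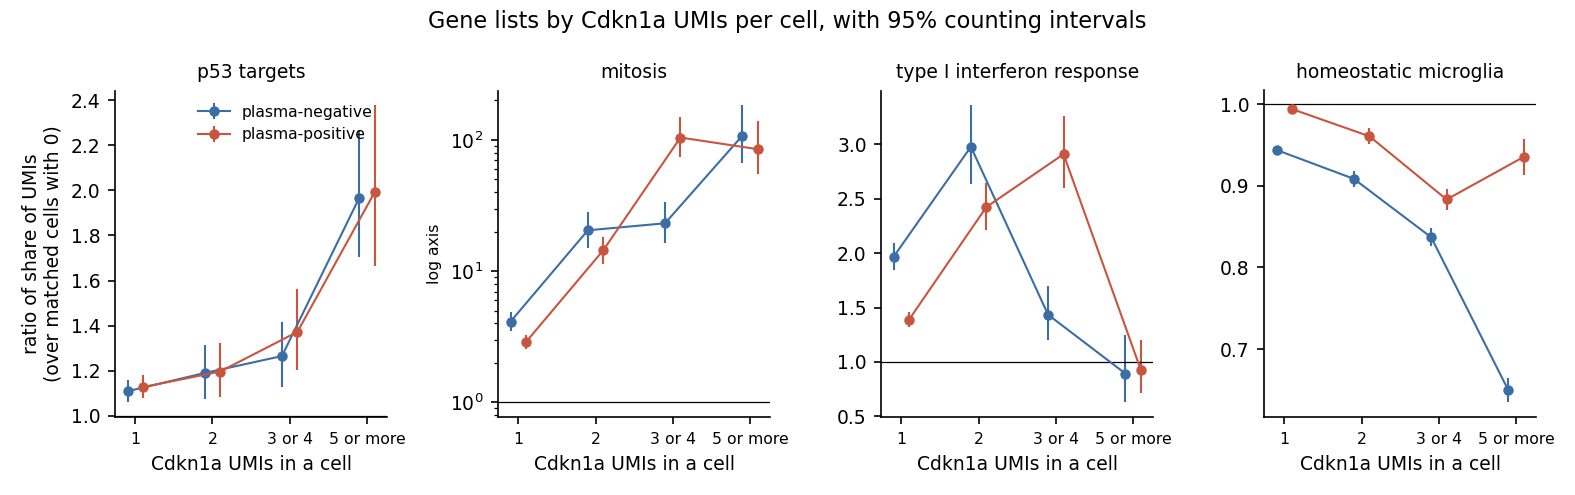
Summed ratio of 4 gene lists over matched cells with 0 Cdkn1a UMIs (vertical; log axis for mitosis) by Cdkn1a UMIs per cell (horizontal), by library, with 95% counting intervals. The p53 targets are highest at 5 or more in both libraries, 1.97 and 1.99, while interferon genes there are at 0.894 and 0.929.

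The Cdkn1a-expressing cells of the 2 libraries also differed from each other. Of 1780 genes at 100 CPM, 49 were at least 1.5-fold higher in plasma-positive cells (2.75%) and 33 lower (1.85%), by size and counting interval alone. Apoe stood at 1567 CPM in plasma-positive and 147 CPM in plasma-negative selected cells, a ratio of 10.7 (8.77 to 13.1), and in matched cells it stood at 1853 and 154 CPM. One plasma-positive selected cell held 348 of the 1067 Apoe UMIs there. Ifi27l2a was at 4.99 (3.77 to 6.68) against 6.27 (4.73 to 8.44) in matched cells, and Ifitm3 at 3.09 (2.12 to 4.61) against 6.18 (4.53 to 8.59). Ccl12, a monocyte-attracting chemokine gene, was at 4.34 (3.60 to 5.27) against 2.30 (2.11 to 2.51). Mki67 was at 2.28 (1.80 to 2.92), beside mitotic cells at 17.9% of plasma-positive and 6.79% of plasma-negative selected cells.

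Lpl went the other way. It was lower in plasma-positive selected cells, at 0.472 (0.360 to 0.616), whereas in matched cells it was higher, at 2.19 (1.71 to 2.82); 1 plasma-negative cell held 81 of the 192 UMIs there. Spred1, a Ras pathway inhibitor gene, Nfat5, an osmotic stress factor gene, Sars, a seryl-tRNA synthetase gene, and Fmnl3, a formin gene, were at 0.493 to 0.531, and at 0.812 to 0.951 in matched cells. Bax was at 0.772 (0.601 to 0.989). With 1 library per fraction none of these differences has a replicate check.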

How the data were processed

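The deposited files hold UMI counts per gene and cell from 3′ droplet libraries (10x Genomics v3.1 chemistry); per the file headers they were written by Cell Ranger 6.1.2, while the submitters' processing notes name Cell Ranger 3.0.1. The genome build and annotation are not given in the sources used here. The gene tables deposited beside the counts list 31053 genes, of which 35 symbols belong to more than 1 identifier.

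Cells were kept above minimums of 500 UMIs and 300 genes, with no more than 10% of UMIs mitochondrial (9860 of 9878 and 10362 of 10390). Cells with 2 or more Cdkn1a UMIs were each matched to 5 cells with 0, without reuse, on the logarithm of total UMIs within a library. UMIs were summed per group and library and scaled to CPM by the library-size total of the group. Ratios have exact conditional binomial intervals, levels exact Poisson intervals and shares Clopper-Pearson intervals, all at 95%. The ratio and the rule of size were checked on simulated counts. Pairs of groups were described with no test, since cells are not replicates. The members, gene lists and measures were chosen with earlier results of these data known; the groups "5 or more mitosis UMIs" and "under 0.3% mitochondrial UMIs" and alternatives without them were added after seeing these values. Named were the up to 15 highest and 15 lowest genes by ratio at 50 CPM that met the rule of size, the 2 highest and 2 lowest of each list at 20 CPM, and the 5 highest and 5 lowest between libraries at 100 CPM; Bax, Polk, Mdm2, Ccng1, Rps27l, Phlda3, Cdkn2a, Pcna, Ccnd1, Trp53, Il6 and other genes outside this rule were added after their values were seen. Mitochondrial and ribosomal protein genes were described as groups.

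Doublets were not removed in the values given. Scrublet (scanpy 1.11.5) marked 1 and 4 cells by its own threshold, too few to be a working call, so an alternative removed the highest scores at 0.8% per 1000 cells; 28 of the 285 Cdkn1a-expressing cells were among them, none of them with mitosis transcripts. Promoter sequences were from RefSeq (GRCm38.p6). Python 3.11.15, numpy 2.4.6, scipy 1.17.1 and pandas 2.3.3 were used.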

Additional observations from a re-analysis of the deposited data

Results flagged for a closer look

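The summed share of mitochondrially encoded RNA lay on opposite sides of the matched cells in the 2 libraries. It was 0.875 (0.854 to 0.896) times that of matched cells in the plasma-negative library and 1.09 (1.07 to 1.12) times in the plasma-positive library. The difference between the libraries was not tested, since each is 1 sample. Beside it, 24.7% of plasma-negative and 4.07% of plasma-positive Cdkn1a-expressing cells had under 0.3% mitochondrial UMIs, against 4.81% and 1.79% of matched cells; the part of these cells in the result was not tested.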

How the results depend on the processing

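No paired analysis was possible because each fraction is 1 library. Against 51 higher and 3 lower genes, counts were 9 and 0 for cells with at least 1 Cdkn1a UMI, 125 and 23 for at least 3, 156 and 19 at 20 CPM, and 3 and 0 at 200 CPM. With 1 library left out they ranged from 111 to 134 and from 22 to 40. Lower genes numbered 10 after thinning, 5 with 1 matched cell, 1 against all cells with 0, 1 without the highest Scrublet scores and 7 without the deepest 5% of cells. Among alternatives added after seeing the data, 14 were higher and 1 lower without mitotic cells, and 13 and 0 when shares of cells with a UMI were compared. The list genes that met the rule, 42, became 18 (at least 1 UMI), 17 (thinned), 49 to 69 (with 1 library left out) and 19 (without mitotic cells). Of 18 named genes 7 met it without mitotic cells and 10 by shares of cells. The Cdkn1a-expressing share was 0.386% and 0.205% after thinning, 6.05% and 4.98% at 1 UMI, and 0.781% and 0.511% at 3. Of 685 values for 49 results, 399 kept their size, 276 moved and 10 changed sign. Of the latter, the summed log2 ratio of the disease-associated list became 0.0085 at 1 UMI, 0.0070 with 1 matched cell and 0.0429 without mitotic cells. The TGF-beta pathway became 0.0200 after thinning and 0.0175 without mitotic cells, and nuclear-retained RNAs 0.0034 after thinning. Immediate early genes ranged from -0.0270 to 0.224 with 1 library left out (-0.0270 without the plasma-negative one), and Hist1h2ae became -0.42 without mitotic cells. Ribosomal protein genes became 0.0049 without mitotic cells and 0.0052 without low-mitochondria cells. The cause was not tested. The plasma-positive over plasma-negative level of Cdkn1a kept its direction under each alternative run. For this level, leaving out the low-mitochondria cells was not among those alternatives. The Cdkn1a-expressing share moves with depth, as the thinned values show.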
